A study of Homo sapiens with 8 samples.

Results

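bktRNA29 and bktRNA385 are a pair of 54 nt RNAs with almost the same sequence, assigned to different chromosomes. They are 2 of the 14 RNAs in the deposited reactivity file and were found there by name; the rule uses their sequences and no measured value, although earlier results of these data were known. Both profiles peaked at the same C, at nt 36. The score there was 0.0684 in bktRNA29 and 0.130 in bktRNA385, and 17 of the 52 nt in their common stretch were listed at 0 in both.

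The RNAs came from HEK293T, a human embryonic kidney cell line, made to overexpress FLAG-tagged SNU13 stably, a protein that the labels call by its molecular weight. All 8 libraries share that tagged protein, which was pulled down with an anti-FLAG antibody, so the RNAs seen are those that came down with an overexpressed protein in a single line. While on the beads, the complexes of 4 libraries were treated with NAI-N3 and those of the other 4 with DMSO, the solvent alone. The authors merged these libraries into a single score per nucleotide, and neither a value per library nor the depth behind a score was used here. No difference in this account can therefore be set against the spread between replicates, no test was made, and every SD is over nucleotides.

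SNU13 recognises the kink-turn, a sharp bend between a pair of short helices that is held by G·A pairs formed between box C and box D. In box C/D small nucleolar RNAs (snoRNAs), which guide 2'-O-methylation of other RNAs, box C lies near the 5' end and box D near the 3' end. NAI-N3 is a SHAPE reagent. It reacts with the 2'-hydroxyl of flexible nucleotides, and reverse transcriptase then misreads the modified base, so a high score marks a mobile nucleotide and a low score one held by pairing or by protein.

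Parts of both RNAs are printed to show the boxes, the peak and the place where the copies part. The first set is the 5' part, with box D in capitals, and it is the same in both copies.
bktRNA29 and bktRNA385, nt 1 to 14: uuuuCUGAggacug
The second set is the 3' part, with the C of nt 36 and box C in capitals.
bktRNA29, nt 25 to 54: gcgauguggugCacucuuccuGUGAUGAgg
bktRNA385, nt 25 to 54: gcgauguggugCacucuuccuGUGAUGAag
The copies were identical from nt 1 to nt 52 and again at nt 54, which is 53 of 54 nt. The only substitution was G53A, counted from 1 at the 5' end, with the base of bktRNA29 first. Both end in G at nt 54, so a single nucleotide of the last 2 differs. A read that lies wholly within nt 1 to 52 fits both loci equally well. How the authors placed such reads is not given in the sources used here, and the flanks of the loci were not compared. The score of either copy may hold reads of the other.

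On hg38, bktRNA29 lies at chr1:162786277-162786330 and bktRNA385 at chr10:38351943-38351996, both on the plus strand. The printed 3' parts are chr1:162786301-162786330 and chr10:38351967-38351996. bktRNA29 lies within the RefSeq span of DDR2, the gene of a collagen-binding receptor tyrosine kinase, which is also on the plus strand. It ends 1075 bp before the end of that span. Whether it falls in an exon, an intron or the untranslated part of DDR2 was not analysed here. No RefSeq gene span covers bktRNA385.

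The downstream neighbours of both loci are related. The span of HSD17B7, a gene of cholesterol synthesis, starts 4372 bp after the end of bktRNA29. The span of HSD17B7P2, listed as a transcribed pseudogene, starts 4384 bp after the end of bktRNA385. These gaps differ by only a few bases, and the spans have like lengths, 22122 bp for HSD17B7 and 22126 bp for HSD17B7P2. The upstream neighbours differ. On chromosome 10 the nearest one is the pseudogene PLD5P1, which ends 18775 bp before bktRNA385.

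Box D was searched as CUGA, allowing 1 mismatch outside the final GA. Box C was searched as GUGAUGA, or the same with A first, allowing 2 mismatches outside the UGA that follows its first base. Only the RNA's own strand was read. In both copies an exact box D stood at nt 5 to 8, and nt 46 to 52 read GUGAUGA, an exact box C. This is box D first and box C last, the reverse of the snoRNA order, and 13 of the 14 RNAs in the file had it with both boxes within 20 nt of their ends.

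The copies also met the rule for the forward order, as 3 of the 14 RNAs did, but with the same nucleotides read a second time. The forward box C was CUGAGGA at nt 5 to 11, with 2 mismatches, and it begins on the reverse box D. The forward box D was AUGA at nt 49 to 52, with 1 mismatch, and it is the end of the reverse box C. A GUGA at nt 46 to 49, also inside box C, matched equally well. The copies thus held no forward pair of boxes apart from the reverse pair. A second exact CUGA stood at nt 12 to 15 in both, outside either pairing of boxes. With 30 nt windows the same numbers of RNAs met each rule.

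Both sequences gave the same predicted fold, at a minimum free energy of -13.1 kcal/mol with 15 base pairs in 4 helices. Helix 1 pairs nt 4 to 5 with nt 48 to 49, helix 2 nt 8 to 11 with nt 42 to 45, helix 3 nt 14 to 17 with nt 37 to 40, and helix 4 nt 20 to 24 with nt 29 to 33. Helix 4 closes the hairpin loop at nt 25 to 28 and includes 2 G-U pairs. Between helices 3 and 4, the U, G and C of nt 34 to 36 face the U pair of nt 18 to 19 in an internal loop. The substitution lies in the unpaired 3' tail. The prediction knows no protein and no kink-turn, and its helix 1 uses nucleotides of both boxes.

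**Figure D1:**
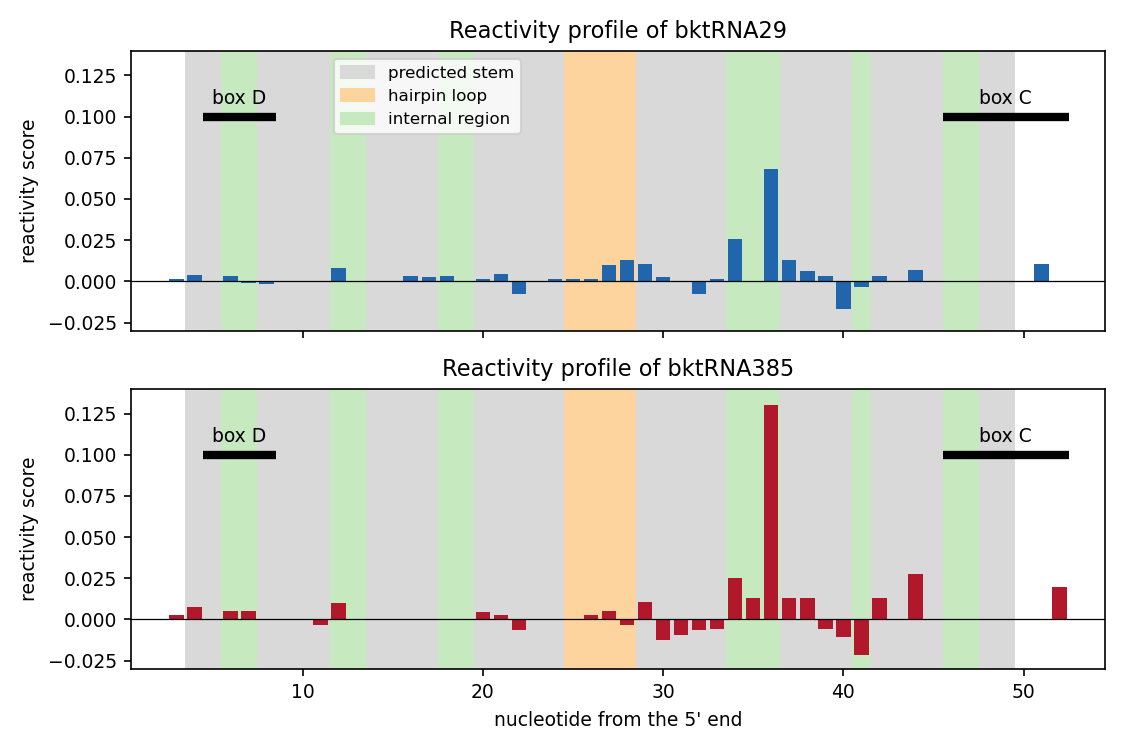
Reactivity score (vertical axis, no stated unit) at each of the 54 nt of bktRNA29 (upper panel) and bktRNA385 (lower panel), with predicted stems, hairpin loop and internal regions shaded and the boxes marked by black bars. Both profiles have their tallest bar at nt 36, at 0.0684 and 0.130, inside the internal loop between helices 3 and 4.

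The internal loop at nt 34 to 36 held the strongest signal in both copies. The C of nt 36 scored 0.0684 in bktRNA29 and 0.130 in bktRNA385, which is 1.90 times as high. Beside it, the U of nt 34 scored 0.0257 and 0.0250, nearly the same. Between them, the G of nt 35 scored -0.000130 in bktRNA29 and 0.0132 in bktRNA385. So the loop was not uniformly reactive. The copies were alike at nt 34 and farthest apart at nt 36. At nt 35 both scores were smaller in size than the most negative score of their own profile.

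The mean of the 3 nt was 0.0313 ± 0.0346 (SD) in bktRNA29 and 0.0560 ± 0.0642 (SD) in bktRNA385. The facing side of the loop was quiet. The U of nt 18 scored 0.00317 in bktRNA29 and 0 in bktRNA385, and the U of nt 19 was at 0 in both.

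A single nucleotide carried much of either profile. The C of nt 36 made up 32.5% of the summed positive score of bktRNA29 and 41.9% of that of bktRNA385. It stood 2.66 and 4.68 times above the second highest score of its own RNA. In the other 12 RNAs the highest score was 4.55% to 34.2% of the positive sum (median 12.5%) and 1.01 to 2.99 times the second highest. bktRNA385 thus had the most concentrated profile of the 14 on both measures, and bktRNA29 came next after 1 other RNA on both. The share was not adjusted for length, and the other RNAs run from 39 to 251 nt. It was highest in bktRNA2 (39 nt) and lowest in bktRNA105 (204 nt). The RNAs nearest the copies in length, bktRNA21 (56 nt) and bktRNA17 (59 nt), had 13.3% and 22.9%. Among the other RNAs the peak was a C in 1 and lay in a predicted stem in 7 and a hairpin loop in 5, so an internal region held it only in the pair of copies.

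The most negative score gives a rough floor for each profile, since reactivity itself cannot be below 0. It was -0.0168 at nt 40 of bktRNA29 and -0.0217 at nt 41 of bktRNA385. Scores larger than the size of that value numbered 2 in bktRNA29, at nt 34 and nt 36, and 3 in bktRNA385, at nt 34, nt 36 and nt 44. In the other 12 RNAs, which are 39 to 251 nt long, this number ran from 5 to 30, not adjusted for length. In those nearest the copies in length, bktRNA21 (56 nt) and bktRNA17 (59 nt), it was 22 and 25. It was lower in others of similar length: 15 in bktRNA16 (60 nt), 5 in bktRNA28 (47 nt) and 8 in bktRNA61 (66 nt). The peak at nt 36 and the U of nt 34 were therefore the scores that cleared the floor in both copies.

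Across the 52 identical nt, 35 had unequal scores and 17 were equal, all of these at 0, so the 2 profiles are not 1 profile listed under 2 names. bktRNA385 was higher at 19 nt and lower at 16. The mean difference, bktRNA385 minus bktRNA29, was 0.00102 ± 0.0110 (SD over 52 nt), with a median of 0 and a median absolute difference of 0.00166. With scores below 0 kept as deposited, the mean difference rested on nt 36: without it the mean was -0.000164. With scores below 0 set to 0 and all 52 nt kept, the mean difference was 0.00191. The difference at nt 36, 0.0615, was 22.8% of the summed absolute difference and the only one larger than the floor of both profiles.

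After nt 36, the largest gaps with bktRNA385 above bktRNA29 were at nt 44, nt 52, nt 35 and nt 42. The C of nt 44, in helix 2, scored 0.00667 in bktRNA29 and 0.0278 in bktRNA385. The A of nt 52, the last of box C, scored 0 and 0.0196. The U of nt 42 in helix 2 scored 0.00329 and 0.0132. At all 3 positions the score of bktRNA29 lay below its own floor, and only the C of nt 44 in bktRNA385 lay above its floor.

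The largest gaps the other way were at nt 41, nt 28, nt 30, nt 51 and nt 31. The unpaired U of nt 41 scored -0.00347 in bktRNA29 and -0.0217 in bktRNA385. The A of nt 28, the last of the hairpin loop, scored 0.0130 and -0.00345. The G of nt 30 scored 0.00252 and -0.0124, and the U of nt 31 scored -0.000296 and -0.00937. The G of nt 51, in box C, scored 0.0103 and 0. In 3 of these 5 the gap comes mainly from scores below 0 in bktRNA385, a sign that reactivity itself cannot take.

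**Figure D2:**
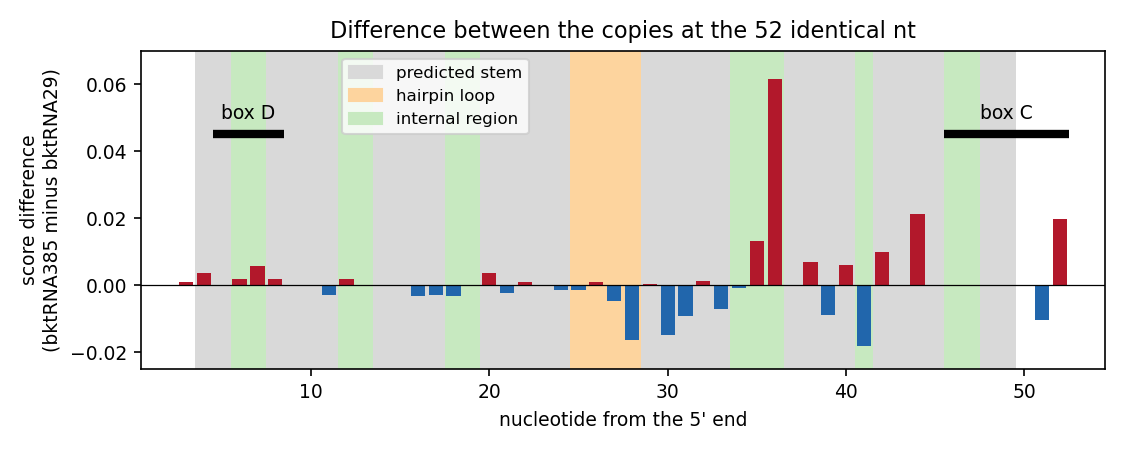
Score of bktRNA385 minus score of bktRNA29 (vertical axis) at the 52 identical nt, red where bktRNA385 is higher and blue where it is lower, with predicted regions shaded and boxes marked. The bar at nt 36 reaches 0.0615, and all 8 gaps above 0.01 in size lie between nt 28 and nt 52.

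The gaps were not spread evenly. All 8 gaps above 0.01 in size lay in nt 27 to 52, a division made after the profiles were seen, and 0 lay in nt 1 to 26. In the 5' part the largest gap was 0.00575, at the G of nt 7 in box D. The mean score was 0.00109 ± 0.00282 (SD) in bktRNA29 and 0.00124 ± 0.00336 (SD) in bktRNA385 over nt 3 to 26, and 0.00559 ± 0.0150 and 0.00750 ± 0.0275 over nt 27 to 52. The 3' part was thus higher than the 5' part in both copies, and their scores lay farther apart there.

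The profiles resembled each other more in where they peaked than in their low scores. Across the 52 nt Pearson's r was 0.895 and Spearman's rho 0.546, given as a description, since neighbouring nucleotides share reads and are not independent. Without nt 36, r was 0.582 and rho 0.516. Without the 3 nt with the highest sums over both copies, r was 0.468 and rho 0.460. The slope of bktRNA385 on bktRNA29 through 0 was 1.58 with nt 36 and 0.845 without it, so the slope above 1 rested on that nucleotide.

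The signs of the scores were also counted. Both copies were above 0 at 15 nt, and bktRNA385 was the higher in 12 of these. Both were below 0 at 6 nt, and the signs were opposite at 6. At 7 nt bktRNA385 was listed at 0 and bktRNA29 was not, and the reverse held at 1 nt, the A of box C at nt 52. Of the 5 highest nucleotides in each copy, 3 were shared, at nt 34, nt 36 and nt 37, the last being an A of helix 3 that scored 0.0130 and 0.0132.

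**Figure D3:**
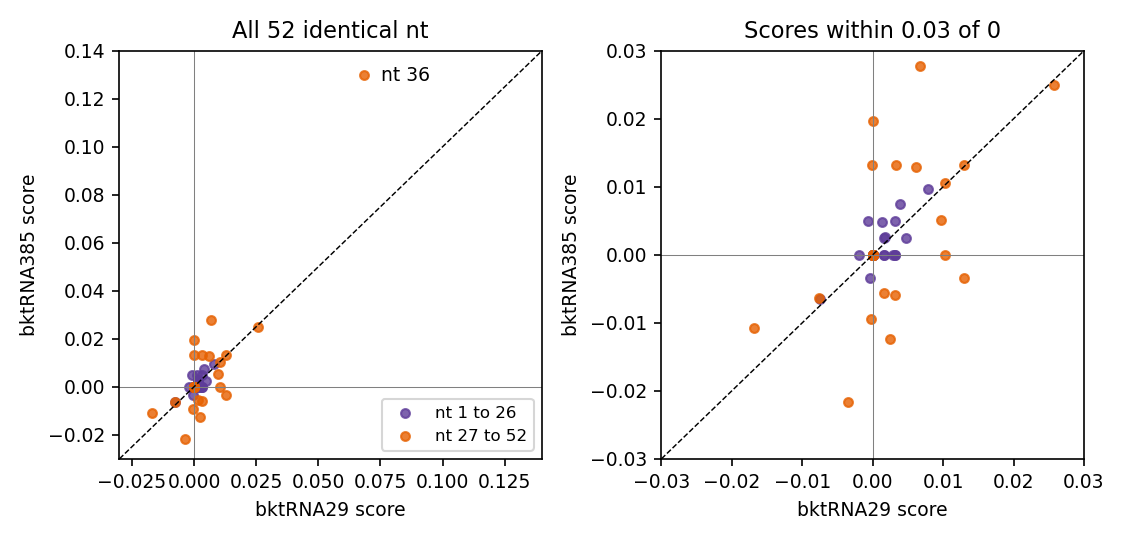
Score in bktRNA385 (vertical axis) against score in bktRNA29 (horizontal axis) at the 52 identical nt, one point per nucleotide, with the line of equal scores dashed; the right panel enlarges scores within 0.03 of 0. The point of nt 36 stands alone at 0.0684 and 0.130, and near 0 the points of nt 27 to 52 scatter widely on both sides of the line.

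Other pairs of RNAs in the file give a scale for this likeness. Aligned at the 5' end over at most 52 nt, the other 90 pairs had r from -0.223 to 0.731 (median 0.0289) and rho from -0.320 to 0.342 (median 0.0924). No pair had a higher r or rho than the copies. The copies were picked for their shared sequence and may hold reads of each other, whereas the other pairs were not aligned by sequence. Without nt 36 the r of the copies, 0.582, lies below that of 2 pairs with all nucleotides kept, bktRNA16 with bktRNA17 (0.731) and bktRNA23 with bktRNA28 (0.612), while their rho of 0.516 lies above that of every other pair. All pairs share the end positions at 0 and the same libraries. Apart from the copies, only bktRNA23 and bktRNA105 share an identical stretch of at least 20 nt, and it is 32 nt long. Over those 32 nt r was 0.401 and rho 0.351, and 29 of the scores were unequal.

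**Figure D4:**
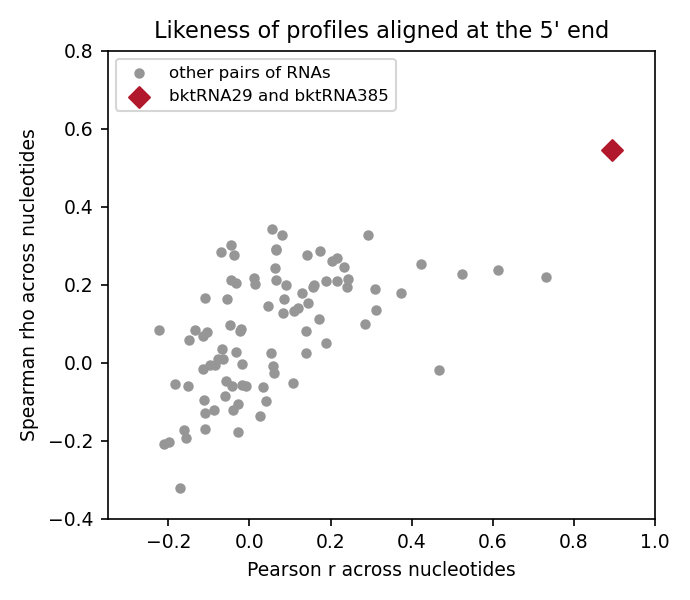
Spearman's rho (vertical axis) against Pearson's r (horizontal axis) of the reactivity profiles of every pair of the 14 RNAs, aligned at the 5' end. The copies, drawn as a diamond, sit at 0.895 and 0.546, to the right of and above the other 90 pairs.

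Box D, which gives the GA of the kink-turn's G·A pairs on one strand, stayed below 0.01 in both copies. The C of nt 5 was at 0 in both. For the U of nt 6 the score was 0.00321 in bktRNA29 and 0.00496 in bktRNA385. For the G of nt 7 it was -0.000714 and 0.00504, and the A of nt 8 scored -0.00190 and 0. The mean was 0.000150 ± 0.00219 (SD over 4 nt) in bktRNA29 and 0.00250 ± 0.00289 (SD) in bktRNA385.

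bktRNA385 had the highest mean box D score of the 13 RNAs with both boxes, which in the other 11 ran from -0.000449 to 0.00160. Its U of nt 6 and G of nt 7 were each above the matching nucleotide of all 11, where the highest were 0.00395 and 0.00128. In bktRNA29 the U was exceeded in 1 of the 11 and the G in 10. The mean of box D minus that of the rest of the RNA was -0.00327 in bktRNA29 and -0.00179 in bktRNA385. Without nt 36 it was -0.00194 and 0.000768, so in bktRNA385 the sign turned. All of these box D scores lay below the floor of their profile.

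Directly before box D the copies carried little signal. Of the U residues there, nt 3 scored 0.00172 in bktRNA29 and 0.00265 in bktRNA385, against a median of 0.0144 and a highest value of 0.0567 in the other 11 RNAs. At nt 4 the scores were 0.00393 and 0.00754, against a median of 0.00969 and a highest value of 0.0980. Of the 11 RNAs, 8 were above both copies at the first of these positions, and 7 and 6 were above bktRNA29 and bktRNA385 at the second.

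Box C, which supplies the other strand of the G·A pairs, was at 0 from nt 46 to nt 50 in both copies. The copies differed at its last 2 nt, beside the substitution. At the G of nt 51 bktRNA29 had 0.0103 and bktRNA385 had 0, and the A of nt 52 scored 0 in bktRNA29 and 0.0196 in bktRNA385. The mean over the 7 nt was 0.00147 ± 0.00390 (SD) and 0.00280 ± 0.00741 (SD), each resting on a single nucleotide.

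The A of nt 52 in bktRNA385 scored above its match in every other RNA with both boxes. In those 11 RNAs it was at 0 in 10, and the highest value was 0.00733. The G of nt 51 in bktRNA29 was exceeded in 1 of the 11, where the highest value was 0.0105. Both this G and the A of nt 52 in bktRNA385 lay below the floor of their profile, and their depth is unknown. The last 2 nt of each copy, which include the substitution at nt 53, were at 0, as were the first 2. The nucleotide that tells the copies apart thus carried no score in either. At that place, directly after box C, all 11 other RNAs were at 0 too.

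**Figure D5:**
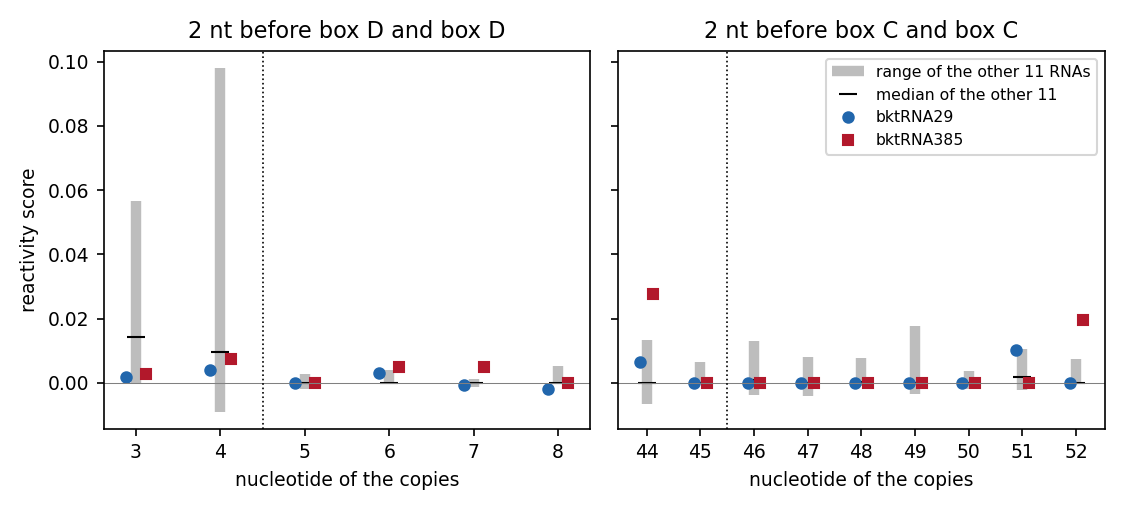
Reactivity score (vertical axis) at the 2 nt before each box and at the box itself (horizontal axis, nucleotide of the copies; the dotted line marks the start of the box), with bktRNA29 as circles, bktRNA385 as squares, and the range and median of the other 11 RNAs with both boxes as grey bars and dashes. bktRNA385 lies above the grey bars at nt 6, nt 7, nt 44 and nt 52, and bktRNA29 lies below its bar at nt 8.

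Of the 2 nt before box C, only the first differed between the copies. The C of nt 44 scored 0.00667 in bktRNA29 and 0.0278 in bktRNA385. At the matching nucleotide of the other 11 RNAs the median was 0 and the highest value 0.0134, above bktRNA29 in 1 RNA and above bktRNA385 in 0. At nt 44 the score of bktRNA29 lay below its floor, the gap was not larger than the floor of both profiles, and depth is unknown. The U of nt 45 was at 0 in both copies. This C is predicted to pair with the G of nt 9, which was at 0 in both.

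By predicted region, the hairpin loop went against the order of the internal loop. Its 4 nt averaged 0.00646 ± 0.00581 (SD) in bktRNA29 and 0.00103 ± 0.00365 (SD) in bktRNA385, or 0.00190 in the latter with scores below 0 set to 0, and 3 of the 4 were lower in bktRNA385. The G of nt 27 scored 0.00976 and 0.00514, and the A of nt 28 scored 0.0130 and -0.00345. Hairpin loops are usually the most mobile part of a fold, but in both copies this loop stayed below the floor of the profile.

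The 12 nt of all internal regions averaged 0.00867 ± 0.0203 (SD) in bktRNA29 and 0.0138 ± 0.0381 (SD) in bktRNA385. Without nt 36 these means were 0.00324 ± 0.00801 (SD, 11 nt) and 0.00329 ± 0.0114 (SD), so outside the peak the deposited scores had like means in both. The mean of bktRNA385 includes -0.0217 at nt 41. With scores below 0 set to 0 and nt 36 kept, the means were 0.00903 and 0.0156. The 30 nt of stems averaged 0.000989 ± 0.00532 (SD) and 0.00108 ± 0.00823 (SD), or 0.00214 and 0.00308 with scores below 0 set to 0. The 24 unpaired nt together averaged 0.00591 ± 0.0147 (SD) and 0.00802 ± 0.0273 (SD), and 0.00320 ± 0.00639 and 0.00272 ± 0.00873 without nt 36.

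Among the helices, the level was lowest in bktRNA385 in helix 4, at -0.00224 ± 0.00703 (SD over 10 nt), where bktRNA29 had 0.000645 ± 0.00529 (SD). The 3' strand of this helix, nt 29 to 33, averaged 0.00129 ± 0.00641 (SD) in bktRNA29 and -0.00463 ± 0.00890 (SD) in bktRNA385. The widest gap the other way was in helix 2, where bktRNA385 averaged 0.00470 ± 0.0106 (SD over 8 nt) and bktRNA29 0.000967 ± 0.00271 (SD), mostly through nt 42 and nt 44. Helix 3 had 0.00144 ± 0.00848 (SD over 8 nt) and 0.00119 ± 0.00827 (SD). Helix 1 had 0.000982 ± 0.00196 (SD over 4 nt) and 0.00188 ± 0.00377 (SD), all of it from the U of nt 4.

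By base, C had the highest mean in both copies, at 0.00751 ± 0.0225 (SD over 10 nt) in bktRNA29 and 0.0177 ± 0.0407 (SD) in bktRNA385. Without nt 36 the mean of C fell to 0.000749 ± 0.00731 (SD, 9 nt) in bktRNA29 and to 0.00522 ± 0.0108 (SD) in bktRNA385. The mean of U was 0.00307 ± 0.00619 (SD over 19 nt) and 0.00155 ± 0.00928 (SD). The mean of A was 0.00317 ± 0.00614 (SD over 8 nt) in bktRNA29 and 0.00289 ± 0.00795 (SD over 9 nt) in bktRNA385. The mean of G was 0.000759 ± 0.00453 (SD over 17 nt) and -0.000465 ± 0.00571 (SD over 16 nt). In bktRNA29, C without its peak was thus below A and U, and in bktRNA385 it stayed above both. In bktRNA385 the remaining C include nt 44, at 0.0278. No nucleotide was left out of A or U.

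Both copies had a low overall level. The mean over all 54 nt was 0.00318 ± 0.0107 (SD) in bktRNA29 and 0.00416 ± 0.0193 (SD) in bktRNA385, which ranked 13 and 12 of 14, and the other 12 RNAs ran from 0.00193 to 0.0110. Without nt 36 the means were 0.00195 ± 0.00586 (SD, 53 nt) and 0.00179 ± 0.00841 (SD), so the order of the copies turned. The turn depends on scores below 0, which were kept in these means. Scores were exactly 0 at 20 nt (37.0%) of bktRNA29 and at 26 nt (48.1%) of bktRNA385, and below 0 at 9 and 10 nt. With depth unknown, a 0 can stand for an unreactive nucleotide or for one without an estimate.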

How the data were processed

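The study's 8 HEK293T libraries (4 NAI-N3, 4 DMSO) were read as mutational profiles, per the labels' protocols. The submitters' processing notes list cutadapt 3.4, STAR and build hg38, with no role given. The values are a reactivity score that the authors deposited once for each nucleotide, with all libraries merged. Its scale, background subtraction, combination of libraries, read placement at near-identical loci and depth are not given in the sources used here.

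Scores were used as deposited, in the 5' to 3' order of each RNA. Coordinates are 1-based, and gene spans came from RefSeq for GRCh38. Folds were predicted with ViennaRNA 2.7.2 from the sequence alone. Python 3.11.15, NumPy 2.4.6, SciPy 1.17.1 and pandas 2.3.3 were used, and the comparison steps were tested on simulated data. Nucleotides are named where they are among the 5 highest of a copy, the 5 widest gaps in each direction, a box or an end, with others for context. RNAs were compared at the 5' end, and the 3 most like the copies were sought over the first 20 and last 20 nt. The members and lists were chosen with earlier results of these data known. Alternatives left out ends, zeros or high nucleotides, set scores below 0 to 0, scaled the copies, used medians, or changed the fold or the box window. Box contrasts and region means without nt 36 were added after the profiles were seen.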

Additional observations from a re-analysis of the deposited data

How the results depend on the processing

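No paired analysis was possible because the libraries were merged into a single profile before deposit, which also leaves no replicate to omit. A value was counted as moved where it changed by over 1.5 times. A direction was read against 0, against 1 for a ratio and against 50% for a share. Direction and bound held in 76 alternatives, the value moved in 20 and the direction turned in 9. The mean difference between the copies (0.00102) turned without nt 36 (-0.000164) and without the 3 highest nt (-0.000587), and it moved to 0.00201 over nt where neither copy was at 0 and to 0.00191 with scores below 0 set to 0. Pearson's r fell to 0.582 without nt 36 and to 0.468 without the 3 highest, while rho stayed within the bound, from 0.460 to 0.688. The ratio of summed scores (1.31) turned to 0.919 and 0.594 under those omissions, and the slope (1.58) to 0.845 and 0.664. On a division chosen after the data were seen, nt 3 to 26 gave a mean difference of 0.000148 and a slope turned to 0.919, and nt 27 to 52 a mean difference of 0.00191. bktRNA385 was higher at 54.3% of the unequal nt, and at 45.7% once each copy was divided by its own mean, where the mean difference is 0 by construction. The mean of box D in bktRNA29 turned to -0.000357 as a median. The other moved values were 14 region means and ranks. With scores below 0 set to 0, stems rose to 0.00214 in bktRNA29 and 0.00308 in bktRNA385, the hairpin loop of bktRNA385 to 0.00190 and box D of bktRNA29 to 0.000802. The other 10 came from medians. The centroid fold and the fold with no lone pairs were the same as the minimum free energy fold. The causes were not tested. What depth limits could not be measured.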

Other observations

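The ends of the copies were compared with those of the other RNAs. Over the first 20 and last 20 nt, the 3 RNAs most like the mean of the copies by Pearson's r were bktRNA105 (0.0573, rho -0.0336), bktRNA23 (0.0436, rho 0.437) and bktRNA21 (0.0279, rho 0.101), so over the ends r was near 0 even for these. Aligned at the 5' end over 52 nt, bktRNA133 had r 0.523 and rho 0.227 with bktRNA29, and r 0.468 and rho -0.0193 with bktRNA385. bktRNA2 was too short for the comparison.

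The score 0.0132 occurred at 3 nt of bktRNA385, at nt 35, nt 37 and nt 42, with the same deposited digits, and no score other than 0 recurred in bktRNA29.

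Over the 32 nt that bktRNA23 and bktRNA105 share, from nt 6 of the former and nt 152 of the latter, the mean was 0.00492 and 0.00649, and the mean difference, bktRNA23 minus bktRNA105, was -0.00157 ± 0.0115 (SD over nucleotides). Of these nucleotides, 17 were higher in bktRNA23 and 12 in bktRNA105, and 3 were at 0 in both. Between bktRNA29 and bktRNA385 the SD of the difference was 0.0110, and 0.00703 without nt 36.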
